A study of Homo sapiens with 36 samples.

Results

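The members described here are 50 genes for proteins of the cytosolic ribosome, 29 of the large (60S) and 21 of the small (40S) subunit, measured in MEC-1 cells. They were found by symbol: an array unit (the set of probes summarised to 1 value) was taken where the array's gene table gives it a single symbol that is RPL, RPS or RPLP with a number, and an A or X where the symbol has one. Of 135750 units, 36176 have a single symbol, covering 33616 genes, and 79 of these matched. Where a gene had several matching units, as 14 members did, the brightest over all arrays was kept. Another 18 ribosomal protein genes appear only in units shared with other genes and are not named with values. RPL10 and RPS3, which are among the 18, are not analysed here, and neither are RPLP0, RPSA and RPS27A.

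MEC-1 is a B-cell line long kept in culture that came from a patient with chronic lymphocytic leukaemia (CLL). Per the labels, its cells took up gapmers (antisense oligonucleotides with locked nucleic acid ends, which direct RNase H to cut a matching RNA) without a transfection reagent, at 1 µM of each gapmer for 4 days. A separate experiment addressed each of the long non-coding RNAs CYTOR (LINC00152 in some labels), LINC00158 and RP11-161H23.5, with 4 groups of 3 arrays: scrambled gapmer, gapmer 1, gapmer 2, and both together (gapmer 1+2, with 1 µM of each). The design compares each treatment with the scrambled gapmer of its own experiment, over 36 arrays in all. All groups come from 1 cell line, and the labels do not say whether the 3 arrays of a group came from separate cultures, so p-values measure only the spread between these arrays.

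A ribosome holds each of its proteins in a fixed number of copies, so their genes are expressed together and at high levels in every growing cell. Their mRNAs begin with a C followed by an unbroken run of pyrimidines (C or T), the 5′ terminal oligopyrimidine tract or TOP, through which mTOR and the protein LARP1 set how strongly these mRNAs are translated. Several ribosomal proteins also act outside the ribosome, RPL5 and RPL11 by holding back MDM2 and so stabilising p53. RPS15 is one of the genes recurrently mutated in CLL.

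The tract is shown at the start sites of the members on which the results turn. Each line below holds 30 bases, 15 before and 15 from the start site listed by RefSeq (GRCh38.p14), 5′ to 3′, and the capitals mark a C at the start with at least 4 C or T after it, read on the gene's own strand.
RPL18, chr19:48619164-48619193, minus strand: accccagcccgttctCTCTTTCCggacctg
RPS9, chr19:54200843-54200872, plus strand: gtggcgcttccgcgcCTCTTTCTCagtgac
RPS19, chr19:41860240-41860269, plus strand: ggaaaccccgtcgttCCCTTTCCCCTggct
RPS15, chr19:1438381-1438410, plus strand: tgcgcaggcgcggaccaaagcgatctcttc
RPL12, chr9:127451392-127451421, minus strand: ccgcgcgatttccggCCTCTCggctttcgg
RPL26, chr17:8383179-8383208, minus strand: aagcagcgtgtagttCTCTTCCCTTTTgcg
RPLP1, chr15:69452803-69452832, plus strand: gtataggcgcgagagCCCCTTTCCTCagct
RPS25, chr11:119018329-119018358, minus strand: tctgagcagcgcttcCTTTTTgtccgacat
RPL11, chr1:23691791-23691820, plus strand, the later of its listed starts: cggaagctccgctttCTCTTCCTgctctcc
RPS24, chr10:78033848-78033877, plus strand: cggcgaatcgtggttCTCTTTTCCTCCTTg
RPL18, RPS9, RPS19 and RPS15 are shown because they had the lowest changes after LINC00158 gapmers, the next 4 and RPS24 because they were higher in arrays labelled with CYTOR gapmers, and RPL11 because its level was the same number on most arrays of a set. The RPS15 window has no tract at the listed start, which says only that these letters are not at that base.

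Of the 50 members, 45 matched an entry of the RefSeq start-site table, and 33 of these (73.3%) had such a tract at a listed start. The share over all 27305 genes in the table was 5.14%. It was 7.46% among 67 matched genes for mitochondrial ribosomal proteins, whose ribosome is a separate one. The members' tracts ran from 5 to 16 bases with a median of 8. A match is a description of the sequence and not a measurement of translation.

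Several properties of these arrays bear on every value. The log2 values stop at a ceiling of 19.93, at which 10 members sat on all 36 arrays and 12 on some, leaving 28 never at it. The 10 were RPL7, RPL7A, RPL9, RPL30, RPL34, RPL41, RPS7, RPS15A, RPS21 and RPS23, and their changes were not measured. The arrays also fell into 4 sets of 9 that share exact values, 1 set of all scrambled arrays and, for each experiment, 1 of its treated arrays. Over 1927 bright units (mean of at least 12, never at the ceiling), 6.07% to 18.007% held the same value to 2 decimals on arrays of a set, and 0.052% to 1.19% on arrays of different sets. No set holds both treated and scrambled arrays, so set and treatment cannot be told apart in any comparison of treated with scrambled arrays.

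The CYTOR unit went against its labels. Its level with scrambled gapmer was 5.34 ± 0.15 (SD, n = 3), below 6.93 ± 0.47, 6.56 ± 0.25 and 6.27 ± 0.21 on the arrays labelled CYTOR gapmer 1, gapmer 2 and gapmer 1+2 (limma adjusted p = 0.00385, 0.0104 and 0.036). These arrays are therefore called by their labels throughout. LINC00158 was lower, at 5.57 ± 0.31, 6.01 ± 0.41 and 5.32 ± 0.52 with the treatments against 7.94 ± 0.75. The two-sided exact permutation p was 0.1 for each of these 6 comparisons, the smallest that 3 arrays against 3 allow. No unit carries the symbol RP11-161H23.5, so its knockdown was not checked. Of the listed markers, the B-cell genes CD37, CD74, CD79A, CD79B, MS4A1 and PAX5 had group means of 7.80 to 14.5. The 12 T-cell, myeloid and erythroid markers had group means of 2.93 to 5.09, apart from CD3E at 5.56 to 7.81, and their part in the results was not tested.

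Most members were bright. Their median level over the 36 arrays was 18.9, against 3.94 over all units and 7.85 over 75 mitochondrial ribosomal protein genes, and 37 of the 50 had a mean above 16, the log2 maximum of a 16-bit scanner. Of the other 13, RPL4 (mean 3.50), RPS3A (4.07), RPS29 (4.21) and RPL5 (6.03) were the dimmest, and RPS15, RPL29, RPL19, RPL36A, RPS9, RPL10A, RPS26, RPL26 and RPS19 had means of 9.49 to 15.5. The 4 dimmest also occur in units shared with other genes. The 6 shared units of genes that are also members had means of 13.5 to 19.9. Their probes differ, so their levels cannot be set against those of the members. No change is given here for single shared units, so a change in a dim unit was not checked against them. The unit's own chromosome differs from the gene's for RPL7, RPL21, RPS26 and RPS28 and is not given for RPL7A and RPS25, so these 6 units may read a near-identical copy. The other 44 units lie on the chromosome of their gene.

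Exact repeats were plain in the members. RPL11, the partner of RPL5 and 5S RNA, read 18.81 on 7 of 9 scrambled arrays, 19.16 on 8 of 9 arrays labelled with CYTOR gapmers, 18.45 on 8 of 9 with LINC00158 gapmers and 18.90 on 8 of 9 with RP11-161H23.5 gapmers. RPS25, a small-subunit protein used by several viral internal ribosome entry sites, read 19.77 on all 9 arrays labelled with CYTOR gapmers and 19.12 on 5 of 9 scrambled arrays. The same number thus stood on arrays of different gapmers. Among the 6 members with a mean of at least 18 that were never at the ceiling, all 6 had 1 value on at least 5 of the 9 arrays labelled with CYTOR gapmers, against 66.7% of bright units at that level. On the LINC00158, RP11-161H23.5 and scrambled sets the numbers were 2, 4 and 3 of 6, against 48.5%, 56.6% and 57.6%. Exact repeats were thus common among bright units as well.

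**Figure D1:**
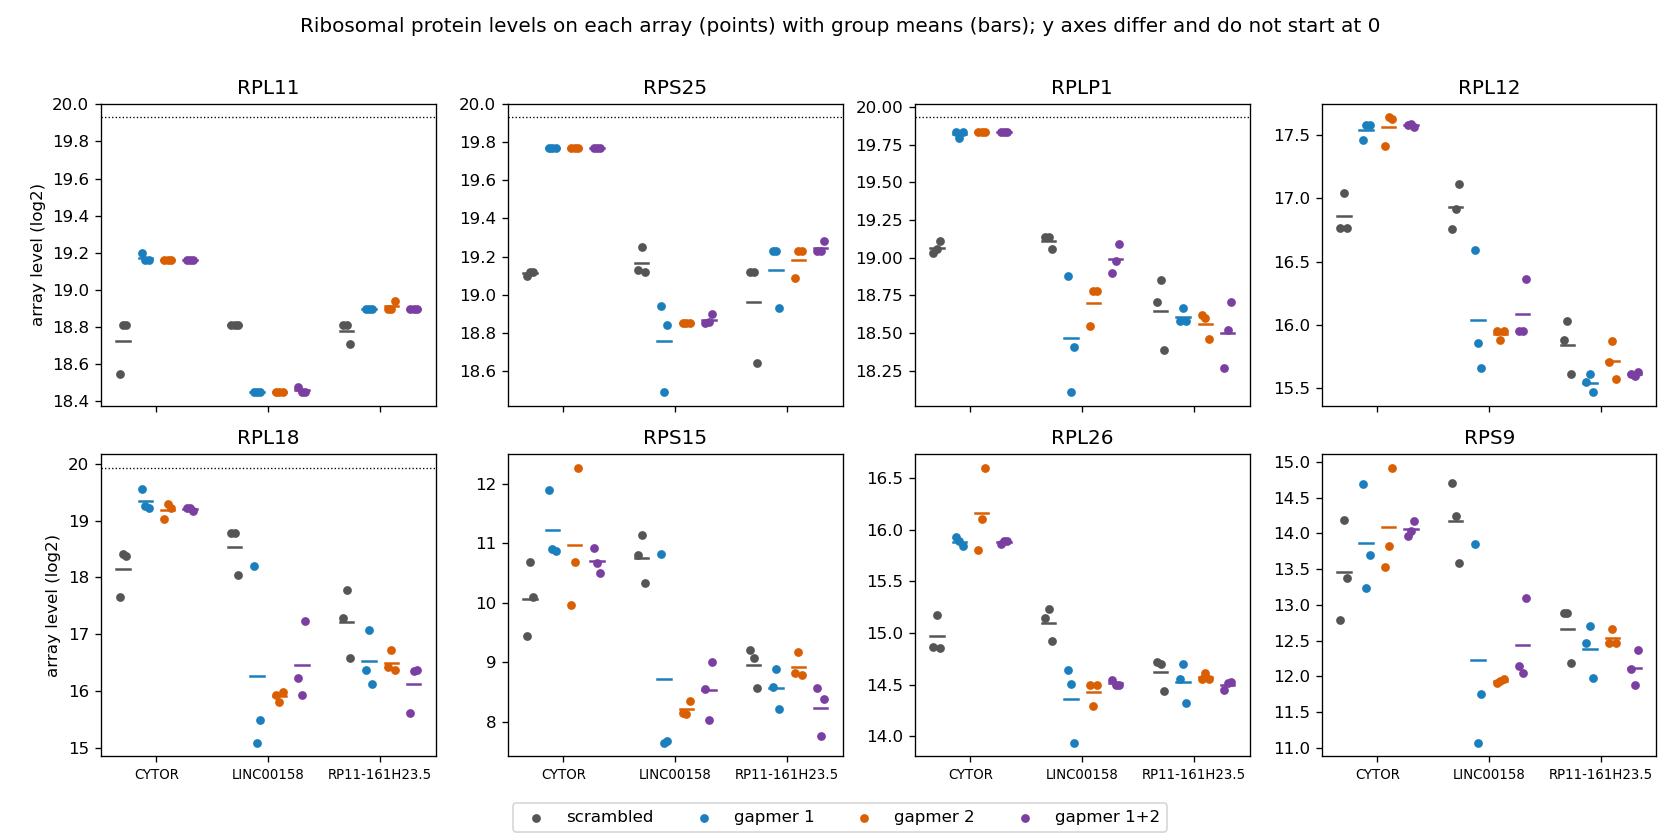
Log2 level of 8 members on each of the 36 arrays (points) with group means (bars), grouped by experiment along the x axis and coloured by gapmer, with the ceiling of 19.93 as a dotted line. RPL11 sits at 18.45 on 8 of 9 arrays with LINC00158 gapmers and at 19.16 on 8 of 9 arrays labelled with CYTOR gapmers, and LINC00158 gapmer 1 replicate 1 stands above the other 2 arrays of its group for RPL18, RPS15 and RPS9.

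On the arrays labelled with CYTOR gapmers, RPL18, RPL26, RPLP1, RPL12 and RPS25 were called higher than with scrambled gapmer in all 3 comparisons. Most members were not called, and 17 or 18 of the 49 tested were at the ceiling on every array compared. A unit was called at an adjusted p under 0.05 (limma, over all units tested). With gapmer 1, 7 of 49 members tested were called higher and 0 lower, against 1.77% of all units called higher and 11.4% lower. With gapmer 2 the members called were 6 higher and 0 lower (1.84% and 12.4% of all units), and with gapmer 1+2 they were 6 higher and 1 lower (1.54% and 8.93%). Of bright units 6.59%, 5.14% and 4.20% were called higher and 5.97%, 7.21% and 3.27% lower. At an unadjusted p under 0.05 there were 13, 14 and 13 members in either direction, against 29.9%, 30.6% and 27.3% of all units. These comparisons share their scrambled arrays, and RPL4 was too dim to be tested in any experiment.

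The median difference over the 27 members never at the ceiling was 0.45, 0.51 and 0.42 (log2) with gapmer 1, gapmer 2 and gapmer 1+2, against 0.07, -0.04 and 0.11 over bright units and -0.23, -0.26 and -0.20 over all units. It was positive in 25, 24 and 26 of the 27. The sign of the member median held after quantile normalization (0.34, 0.41 and 0.32) and after centring each array on its bright units (0.29, 0.48 and 0.26). Small-subunit and large-subunit members had like medians, 0.44 and 0.47 with gapmer 1, over 11 and 16 genes. All 3 treated arrays lay above all 3 scrambled arrays for 15, 11 and 14 of the 27, against 7.08%, 5.86% and 7.72% of all units and 22.1%, 14.1% and 25.2% of bright units.

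RPL18, a large-subunit protein, had the highest mean difference. It read 17.66, 18.42 and 18.38 on the scrambled arrays, 19.56, 19.26 and 19.23 with gapmer 1, 19.02, 19.29 and 19.23 with gapmer 2, and 19.23, 19.23 and 19.17 with gapmer 1+2. All 9 treated arrays lay above the 3 scrambled ones. The differences were 1.20, 1.03 and 1.06 ± 0.21 (SE; adjusted p = 0.00712, 0.0126 and 0.014), and all 3 were also called after both rescalings. In 1 fit of all 36 arrays, which pools the spread of all groups, none of the 3 was called (0.0787, 0.131 and 0.134).

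RPL26, which lies at the exit of the peptide tunnel and is known to bind p53 mRNA, read 14.87, 15.18 and 14.86 with scrambled gapmer. It read 15.93, 15.89 and 15.84 with gapmer 1, 15.80, 16.10 and 16.60 with gapmer 2, and 15.86, 15.89 and 15.89 with gapmer 1+2. The groups did not overlap, and gapmer 2 replicate 3 was the highest array. The differences were 0.92, 1.20 and 0.91 ± 0.20 (SE; adjusted p = 0.0163, 0.0053 and 0.0201), called after both rescalings as well.

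RPLP1, an acidic protein of the stalk that recruits elongation factors, read 19.03, 19.06 and 19.11 with scrambled gapmer and 19.83 on 8 of the 9 treated arrays, the remaining one (gapmer 1 replicate 2) reading 19.79. RPL12, at the base of that stalk, read 16.77, 17.04 and 16.77 with scrambled gapmer and between 17.41 and 17.64 on the treated arrays. RPS25 read 19.10, 19.12 and 19.12 against 19.77 throughout. In each of these 3 genes the treated arrays lay above the scrambled ones with no overlap. RPLP1 was higher by 0.75, 0.76 and 0.76 ± 0.13 (adjusted p = 0.00687, 0.00585 and 0.00789), RPL12 by 0.68, 0.70 and 0.72 ± 0.15 (0.0167, 0.0142 and 0.0163) and RPS25 by 0.66 ± 0.13 with each (0.0114, 0.0106 and 0.0135). After centring on bright units none of these 9 differences passed the test (adjusted p from 0.0583 to 0.179). After quantile normalization RPL12 lost its call with gapmer 1 (0.0591) and gapmer 1+2 (0.076), and RPS25 with gapmer 1+2 (0.0563).

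Among the remaining members called higher, RPL35, a neighbour of the tunnel exit, was higher by 0.55 with gapmer 1 and 0.60 with gapmer 1+2 (SE 0.16; adjusted p = 0.0446 and 0.0377) and by 0.51 with gapmer 2 (0.0566, not called). RPL36A, also of the large subunit, was higher by 0.50 ± 0.15 with gapmer 1 (0.0475). RPS24, a gene mutated in Diamond-Blackfan anaemia, was higher by 0.54 ± 0.15 with gapmer 2 (0.0362). The RPL35 calls were also lost in the fit of 36 arrays (0.157 and 0.132). All 4 of these calls were lost after quantile normalization (adjusted p = 0.0929 to 0.213) and after centring on bright units (0.154 to 0.327). RPS15, of the small subunit, had the next highest mean difference, with 9.44, 10.68 and 10.09 on the scrambled arrays and 9.96 to 12.27 on the treated ones. Its groups overlapped and no difference was called (1.16, 0.90 and 0.63 ± 0.53, adjusted p = 0.168, 0.276 and 0.48).

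Members with roles of their own that were not called included RPL11, at 0.45, 0.44 and 0.44 ± 0.14 (adjusted p = 0.0593, 0.063 and 0.0737). In the fit of 36 arrays RPL11 was called higher with each treatment (0.00328, 0.00414 and 0.00506). RPS14 and RPS19, both disease genes of red cell production, had differences of 0.25 to 0.35 and 0.35 to 0.61 (0.19 to 0.479). RPL22 had 0.34 to 0.50 (0.185 to 0.365), and RPS26, whose unit lies on another chromosome than its gene, 0.60 to 0.99 (0.171 to 0.427).

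RPL5 went the other way. It read 6.67, 5.98 and 7.07 with scrambled gapmer and 4.86 to 6.30 on the treated arrays, gapmer 2 replicate 3 overlapping the scrambled arrays. It fell by 1.46 ± 0.37 with gapmer 1+2 (adjusted p = 0.031), a call lost after quantile normalization (0.0998), and its differences were -1.16 and -1.06 with gapmer 1 and gapmer 2 (0.0602 and 0.0755). After centring on bright units it was called lower with gapmer 1 and gapmer 1+2 (0.0276 and 0.014). In the fit of 36 arrays it was called lower with each treatment (0.023, 0.0349 and 0.00606). The unit is the dim one described above. RPS29 and RPS3A, the other lowest mean differences (-0.18 and -0.08), were dim too, and none of their differences was called (adjusted p from 0.352 to 0.944).

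The number of members called moved with single arrays. For gapmer 1 it was 7, and it became 3 when gapmer 1 replicate 2 was left out and 4 when gapmer 1 replicate 1 or scrambled replicate 1 was. For gapmer 1+2 it was 7, and 3 without gapmer 1+2 replicate 1 or replicate 2, and 4 without gapmer 1+2 replicate 3, scrambled replicate 1 or scrambled replicate 3. For gapmer 2 it stayed between 5 and 7 whichever array was left out. The calls of RPL18, RPLP1 and RPS25 held in all 6 fits that left out 1 array of either group, for each of the 3 treatments. The highest adjusted p-values in those fits were 0.0471, 0.0301 and 0.0452. RPS25 read 19.77 on all 9 treated arrays and RPLP1 read 19.83 on 8 of 9. Leaving out a treated array could therefore hardly move the differences of RPS25 and RPLP1, and these fits say little about how firm their calls are. RPL26 and RPL12 were called in 6 of 6 such fits for gapmer 2, but in 3 and 5 for gapmer 1 and in 1 and 4 for gapmer 1+2. The calls of RPL35, RPL36A, RPS24 and RPL5 held in 0 or 1 of 6.

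At the ceiling, RPS18, a protein of the small-subunit head, read 19.93 on all 9 arrays labelled with CYTOR gapmers and 19.34, 19.59 and 19.59 with scrambled gapmer. It was higher by at least 0.42 with each treatment, without a call (adjusted p = 0.0708, 0.068 and 0.0796), but was called with each in the fit of 36 arrays (0.00687, 0.00671 and 0.0081). RPS27, a zinc-finger protein of the small subunit, was at the ceiling on 8 of these 9 arrays and on 1 of the 9 scrambled arrays of all experiments. RPL31 was at the ceiling on 8 of 9 scrambled arrays and 8 of 9 arrays labelled with CYTOR gapmers, and on none of the other 18, where it read 19.41 to 19.66. RPL37 was at the ceiling on 1 of 9 arrays with LINC00158 gapmers, where the lowest read 19.72, and on at least 8 of 9 arrays of each other set. RPS6, the substrate of the S6 kinases, was at the ceiling on 34 of 36 arrays. The remaining 7 (RPL27, RPL35A, RPL37A, RPL38, RPS12, RPS16 and RPS28) were at the ceiling on 33 to 35 arrays.

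**Figure D2:**
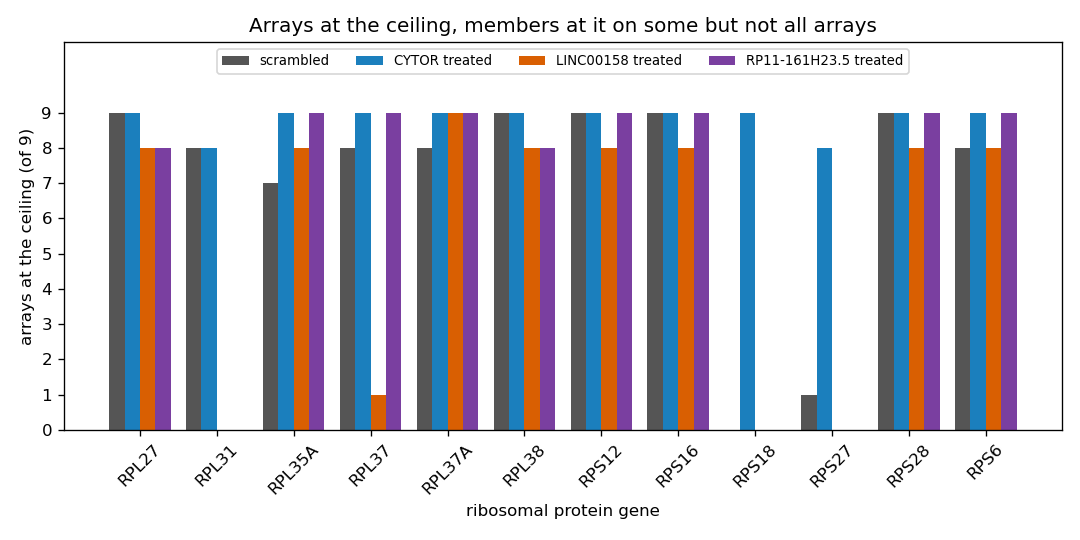
Number of arrays at the ceiling of 19.93, of 9 in each set (y axis), for the 12 members at it on some arrays only (x axis), by set. RPS18 is at the ceiling on all 9 arrays labelled with CYTOR gapmers and no other, and RPL31 on none of the arrays with LINC00158 or RP11-161H23.5 gapmers.

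After LINC00158 gapmers, RPL12 was called lower than with scrambled gapmer in all 3 comparisons and RPL18, RPS15 and RPL26 in some, in the values as deposited. Most members were not called. The members called lower were 3 of 49 with gapmer 1, 9 with gapmer 2 and 2 with gapmer 1+2, against 6.28%, 10.5% and 8.82% of all units and 23.7%, 38.3% and 25.0% of bright units. None was called higher (4.54%, 6.89% and 6.19% of all units, and 2.85%, 4.00% and 3.94% of bright units). At an unadjusted p under 0.05 there were 21, 17 and 13 members, against 30.1%, 34.4% and 33.1% of all units. The shares of members called lower were 6.12%, 18.4% and 4.08%. Of the 49, 11, 18 and 18 were at the ceiling on every array compared and could not be called, while bright units are never at it. The members' shares are therefore not ranked against those of all or bright units. After centring on bright units the calls were 1 higher and 3 lower, 4 and 4, and 3 and 2, and in the fit of 36 arrays 17, 17 and 11 lower and 0 higher. The shares of all and bright units called under these 2 alternatives are not given here, so these counts cannot be set against them. Centring moved the median of all units to 0.66, 0.73 and 0.56. Of the 4 members called higher with gapmer 2 after centring, 1 was RPL37 (0.79, limma adjusted p = 0.0377). As deposited it read 19.93, the ceiling, on the scrambled arrays and 19.90 with gapmer 2. It was therefore not higher as deposited, and any change beyond the ceiling was not measured.

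The median over the 29 members never at the ceiling in this experiment was -0.58, -0.47 and -0.44 as deposited, 0.19, 0.35 and 0.22 after centring on bright units, and -0.15, 0.03 and -0.08 after quantile normalization, so its sign flips with the scaling. Bright units had medians of -0.71, -0.75 and -0.58 and all units -0.11, -0.10 and -0.11. As deposited, 28, 27 and 25 of the 29 members were negative. All treated arrays lay below all scrambled arrays for 16, 24 and 17 of the 29, against 16.6%, 25.3% and 25.1% of all units and 45.8%, 73.9% and 61.9% of bright units.

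The lowest changes were in RPL18, RPS15 and RPS9. RPL18 read 18.78, 18.78 and 18.04 with scrambled gapmer, 18.20, 15.09 and 15.48 with gapmer 1, 15.93, 15.81 and 15.99 with gapmer 2, and 16.22, 15.93 and 17.23 with gapmer 1+2. Gapmer 1 replicate 1 overlapped the scrambled arrays and the other 8 treated arrays lay below them. The difference was -2.28 with gapmer 1 and -2.62 with gapmer 2 (SE 0.66; adjusted p = 0.0492 and 0.0235, both called), and -2.07 with gapmer 1+2 (0.0557).

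RPS15 read 10.80, 11.14 and 10.34 with scrambled gapmer, 10.82, 7.65 and 7.67 with gapmer 1, 8.14, 8.13 and 8.35 with gapmer 2, and 8.55, 8.03 and 9.0 with gapmer 1+2. Again gapmer 1 replicate 1 alone reached the scrambled arrays. The difference was -2.55 with gapmer 2 and -2.23 with gapmer 1+2 (SE 0.68; adjusted p = 0.0282 and 0.0483, both called), and -2.05 with gapmer 1 (0.0737). RPS9, a small-subunit protein near the mRNA entry, read 14.71, 14.24 and 13.58 with scrambled gapmer, 13.85, 11.07 and 11.75 with gapmer 1, 11.91, 11.94 and 11.96 with gapmer 2, and 12.15, 12.05 and 13.10 with gapmer 1+2. It fell by 2.24 ± 0.59 with gapmer 2 (0.027), and its differences were -1.95 and -1.74 with the other treatments (0.0552 and 0.0665). For gapmer 2 the calls of RPL18, RPS15, RPS9 and RPL19 held after quantile normalization and after centring on bright units, and the other 5 calls were lost under both.

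RPS19, the gene mutated most often in Diamond-Blackfan anaemia, read 16.50, 16.55 and 16.49 with scrambled gapmer, 16.85, 14.24 and 14.45 with gapmer 1, 14.83, 14.66 and 14.92 with gapmer 2, and 15.24, 14.78 and 15.61 with gapmer 1+2. Only gapmer 1 replicate 1 lay among or above the scrambled arrays. RPS19 fell by 1.71 ± 0.54 with gapmer 2 (adjusted p = 0.0499), with differences of -1.33 and -1.30 otherwise (0.125 and 0.118). RPL12 read 16.76, 16.92 and 17.11 with scrambled gapmer and 15.66 to 16.59 on the treated arrays, with no overlap. The differences of -0.89, -1.003 and -0.84 ± 0.24 were called as deposited (0.0405, 0.0203 and 0.0403), but they were -0.12 to -0.29 and not called after either rescaling (adjusted p from 0.274 to 0.729). For RPL26, -0.74 with gapmer 1 and -0.67 with gapmer 2 were called as deposited (SE 0.20; 0.0425 and 0.0438), and the difference was positive but not called after quantile normalization (0.07 and 0.21) and after centring on bright units (0.03 and 0.15).

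With gapmer 2, RPL19, a large-subunit protein at a bridge between the subunits, fell by 1.60 ± 0.38 (adjusted p = 0.0192), RPL29 by 1.26 ± 0.36 (0.0346) and RPS10, another Diamond-Blackfan anaemia gene, by 0.99 ± 0.30 (0.0429). RPS14, whose loss from 1 chromosome copy marks the 5q- syndrome, had differences of -1.14, -0.997 and -0.49 ± 0.34, none called (0.0555, 0.0663 and 0.341). RPL11 had -0.36, -0.36 and -0.35 ± 0.14, none called (0.117, 0.0979 and 0.111). In the fit of 36 arrays RPL11 was called lower with each treatment (0.016, 0.0121 and 0.016), and RPS14 with gapmer 1 and gapmer 2 (0.00532 and 0.00987). RPL22, which binds small viral RNAs of Epstein-Barr virus, had -0.20, -0.20 and 0.24 ± 0.19 (0.504, 0.483 and 0.415). RPL5 had -0.32, 0.07 and -0.49 ± 0.41 (0.635, 0.926 and 0.437). The highest mean changes were those of RPL21, RPS3A and RPS24, at 0.11, 0.09 and -0.04, with no call as deposited. RPL21 was called higher with all 3 treatments after centring on bright units (0.85, 0.79 and 0.93, adjusted p = 0.0226, 0.025 and 0.0174), and with gapmer 1 and gapmer 1+2 after quantile normalization (0.0392 and 0.0199). RPS3A with gapmer 2 and gapmer 1+2 (0.88 and 1.14, 0.0431 and 0.0204) and RPS24 with gapmer 2 (0.76, 0.0466) were called higher after centring.

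LINC00158 gapmer 1 replicate 1 stood apart from the other 2 arrays of its group. Its median over the 28 members never at the ceiling was 16.6, close to 16.6 to 16.7 on the scrambled arrays, while the other 2 read 15.2 and 15.3. Over bright units it read 14.4 against 13.6 on both others and 14.6 to 14.7 on the scrambled arrays. Without it, 20 members were called lower and 0 higher with gapmer 1, when 17.2% of all 67908 units tested were called lower. The share of bright units called lower in that fit is not given here, so the 20 cannot be set against units of like brightness. With all arrays kept, it was 23.7% of bright units against 6.28% of all units. The differences were then -3.25 ± 0.37 for RPL18, -3.10 ± 0.30 for RPS15, -2.77 ± 0.38 for RPS9, -2.17 ± 0.24 for RPS19 and -1.62 ± 0.21 for RPS14 (adjusted p = 0.000535, 0.000307, 0.00124, 0.00046 and 0.000998). This array was singled out after its values were seen.

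With no filter on dim units the calls of RPL18 and RPL26 with gapmer 1, RPL26, RPS10 and RPS19 with gapmer 2 and RPS15 with gapmer 1+2 were lost (adjusted p from 0.0503 to 0.0584). Other arrays also decided calls in this experiment. For gapmer 1 the count was 0 without any 1 of gapmer 1 replicates 2 and 3 and the 3 scrambled arrays. For gapmer 2 it fell from 9 to 0 without gapmer 2 replicate 1, gapmer 2 replicate 2 or scrambled replicate 2, to 1 without gapmer 2 replicate 3 or scrambled replicate 1, and to 4 without scrambled replicate 3. For gapmer 1+2 it fell from 2 to 1 without gapmer 1+2 replicate 3 and to 0 without any other array of the comparison.

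The 4 members with the lowest changes, RPL18, RPS15, RPS9 and RPS19, are the members on chromosome 19 that were never at the ceiling, a grouping made after their values were seen. In this experiment their median difference was -2.0, -2.40 and -1.91 with gapmer 1, gapmer 2 and gapmer 1+2, against -0.48, -0.44 and -0.30 over the 25 members elsewhere. They also differed between groups that had only scrambled gapmer: their median was 1.53 higher in the LINC00158 than in the RP11-161H23.5 experiment, against 0.22 for 24 members elsewhere. It was 1.03 against 0.14 for CYTOR minus RP11-161H23.5, and -0.55 against -0.13 for CYTOR minus LINC00158, each over 23 members elsewhere. The comparisons with the LINC00158 scrambled arrays reuse arrays from which the lowest changes were found. They are therefore no separate evidence for the grouping. With RP11-161H23.5 gapmers the medians of the 4 members were -0.33, -0.07 and -0.78, against -0.03, -0.03 and -0.14. On the arrays labelled with CYTOR gapmers they were 0.80, 0.77 and 0.62, against 0.45, 0.47 and 0.41.

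**Figure D3:**
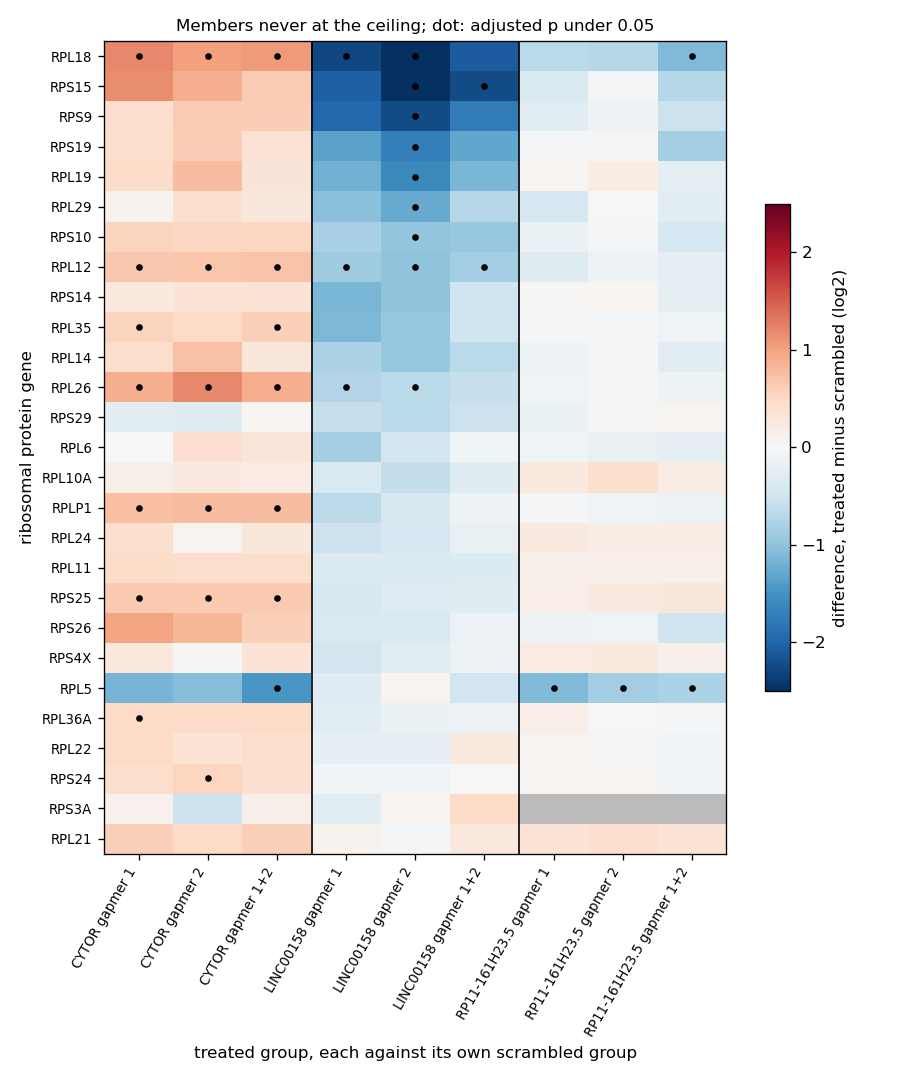
Difference in log2 level, treated minus scrambled, of the 27 members never at the ceiling and bright enough to be tested (rows, ordered by their mean difference with LINC00158 gapmers) in each treated group (columns), with a dot where the limma adjusted p was under 0.05 and grey where not tested. RPL18, RPS15, RPS9 and RPS19 form the top rows, with the lowest values for LINC00158 as deposited, and RPL5 lies between -1.06 and -1.46 on the arrays labelled with CYTOR gapmers.

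After RP11-161H23.5 gapmers few members were called in the values as deposited. Of the 48 tested, 17, 17 and 15 were at the ceiling on every array compared and could not be called. With gapmer 1, gapmer 2 and gapmer 1+2, 1, 1 and 2 of 48 members tested were called lower and 0 higher, against 7.10%, 7.03% and 9.30% of all units called lower and 6.19%, 5.20% and 6.98% called higher. Among bright units 18.8%, 22.1% and 35.8% were called lower and 3.43%, 4.20% and 4.26% higher. At an unadjusted p under 0.05 there were 2, 2 and 8 members, against 29.6%, 28.8% and 32.2% of all units. The median over 28 members was -0.075, -0.028 and -0.218 as deposited, against -0.28, -0.28 and -0.47 over bright units, and it was positive after quantile normalization (0.24, 0.28 and 0.21) and after centring on bright units (0.235, 0.285 and 0.292). Treated arrays all lay above the scrambled arrays for 5, 5 and 3 of the 28 (15.9%, 15.1% and 14.9% of all units) and all below for 3, 3 and 4 (18.3%, 18.8% and 18.9%). Of bright units 9.5%, 12.5% and 7.84% had all treated arrays above and 39.8%, 46.7% and 51.0% all below.

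RPL5 was the gene called lower with each gapmer, read by the dim unit described above (mean 6.03). It read 6.89, 6.51 and 6.68 with scrambled gapmer, 5.72, 5.64 and 5.43 with gapmer 1, 5.76, 5.80 and 5.92 with gapmer 2, and 5.49, 5.99 and 6.21 with gapmer 1+2. No treated array reached the scrambled ones. The differences were -1.10, -0.87 and -0.80 ± 0.20 (adjusted p = 0.00663, 0.0191 and 0.0212). The calls held after quantile normalization (0.00634, 0.0201 and 0.0238), and after centring on bright units only that of gapmer 1 did (0.03, 0.113 and 0.356). In the fit of 36 arrays too, only the call of gapmer 1 held (0.0387, 0.109 and 0.128). RPL18 fell by 1.10 ± 0.34 with gapmer 1+2 (0.0459), from 17.28, 17.77 and 16.58 to 15.62, 16.35 and 16.37, and this call was lost after both rescalings (0.14 and 0.152), in the fit of 36 arrays (0.118) and with no filter on dim units (0.0531).

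The counts again moved with single arrays. For gapmer 2 the count was 0 without gapmer 2 replicate 1, gapmer 2 replicate 2, scrambled replicate 1 or scrambled replicate 3. For gapmer 1+2 it was 0 without gapmer 1+2 replicate 1 or scrambled replicate 1, 1 without gapmer 1+2 replicate 2, gapmer 1+2 replicate 3 or scrambled replicate 2, and 3 without scrambled replicate 3. The RPL5 call with gapmer 1 held in all 6 fits without 1 array, that with gapmer 2 in 2 and that with gapmer 1+2 in 3.

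Members with the highest mean differences were RPL21, RPL10A and RPS25, at 0.37, 0.27 and 0.23, none called as deposited. RPL21 read 17.65, 17.71 and 17.43 with scrambled gapmer and 17.85 to 18.05 on the treated arrays, with no overlap. It was higher by 0.34, 0.42 and 0.34 ± 0.14 (adjusted p = 0.138, 0.0801 and 0.128), and was called higher after centring on bright units (0.65, 0.73 and 0.85, adjusted p = 0.0382, 0.0242 and 0.00635) and after quantile normalization (0.62, 0.76 and 0.78, adjusted p = 0.0164, 0.00722 and 0.00521). Its unit lies on another chromosome than its gene. RPL10A was called higher with gapmer 2 and gapmer 1+2 after quantile normalization (0.66 and 0.62) and after centring (0.71 and 0.69), and RPS25 with gapmer 1+2 under both (0.56 and 0.80). RPL24, of the large subunit, was called higher with each treatment after quantile normalization (0.57, 0.57 and 0.69) and with gapmer 1+2 after centring (0.70). RPS15, the remaining member of the 3 lowest, had differences of -0.38, -0.02 and -0.71 ± 0.26 (0.363, 0.968 and 0.089). RPS14, RPL11 and RPL22 had differences between -0.22 and 0.14, none called (0.532 to 0.974).

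Differences between experiments were tested directly in a model of all 36 arrays, an analysis added after the data were seen. Of the 27 members never at the ceiling, the mean treated change was higher on arrays labelled with CYTOR gapmers than with LINC00158 gapmers for 19 and lower for 0, when 8.70% of all units were higher and 17.1% lower. With centring on bright units 7 were higher and 1, RPL5, lower (1.76% and 58.0% of all units). The shares of bright units in the comparisons between experiments are not given here, so these counts cannot be set against units of like brightness. As deposited, the medians of bright units also lay apart. They were 0.07, -0.04 and 0.11 on arrays labelled with CYTOR gapmers and -0.71, -0.75 and -0.58 with LINC00158 gapmers. RPL18 differed by 3.42 ± 0.55 as deposited and 2.55 ± 0.42 with centring, RPS15 by 3.17 ± 0.65 and 2.30 ± 0.48, and RPL26 by 1.67 ± 0.20 and 0.80 ± 0.24.

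Against the RP11-161H23.5 gapmers, 5 of 27 had a higher mean change on arrays labelled with CYTOR gapmers (4.64% of all units), and 2 with centring (1.19%), RPL18 and RPL26. Between LINC00158 and RP11-161H23.5 gapmers 4 were lower with the former (5.14%), and 3 with centring (1.38%). Each of these differences is also one between sets of arrays.

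**Figure D4:**
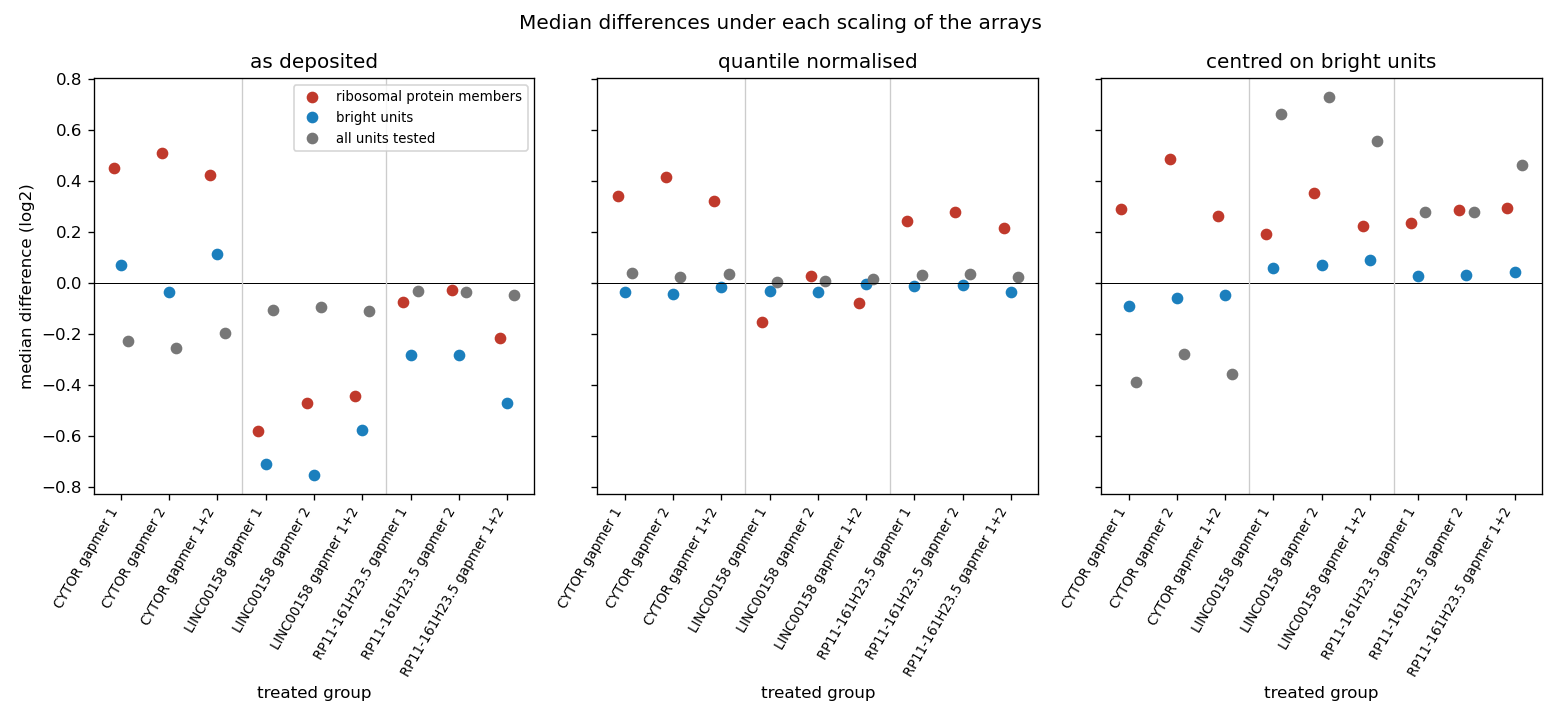
Median difference in log2 level, treated minus scrambled, for members never at the ceiling, for bright units and for all units tested, in each treated group (x axis) as deposited, after quantile normalization and after centring each array on its bright units. The member median on arrays labelled with CYTOR gapmers is positive in all 3 panels (0.26 to 0.51), and those of the LINC00158 and RP11-161H23.5 gapmers change sign between panels.

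Comparisons within a set ask whether the gapmers of an experiment differed from each other. Between gapmer 1 and gapmer 2, and between gapmer 1+2 and the mean of the single gapmers, 0 members were called in any of the 3 experiments by limma, and 0.0% of all units. The lowest adjusted p among members was 0.48, for RPS19, which was 0.83 lower with RP11-161H23.5 gapmer 1+2 than with the single gapmers. At an unadjusted p under 0.05 there were 3 members (RPL22, RPL6 and RPLP1) for LINC00158 gapmer 1+2, against 4.43% of all units. There were 2 (RPS19 and RPS15) for RP11-161H23.5 gapmer 1+2, against 8.37%, and 0 in the other 4 comparisons (4.22% to 6.57%). The median half-width of the members' 95% intervals, which are not adjusted for the number of units, was 0.35 to 0.56. A call needed more than an interval clear of no difference, since that of RPS19 ran from -1.43 to -0.22 without a call. These comparisons could therefore miss differences larger than the half-width.

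Scrambled groups received the same kind of treatment in separate experiments. Between the CYTOR and LINC00158 experiments 0 of 48 members were called by limma, as were 0.0% of all units, and 0 had an unadjusted p under 0.05, against 9.73% of all units. The other comparisons had 6 (CYTOR against RP11-161H23.5) and 10 (LINC00158 against RP11-161H23.5) members with an unadjusted p under 0.05, against 16.6% and 22.9% of all units. Between the CYTOR and RP11-161H23.5 experiments 2 members (4.17%) were higher in the former, RPL12 by 1.02 ± 0.19 and RPL35 by 1.09 ± 0.18 (adjusted p = 0.0371 and 0.0246). The shares called higher were 1.25% of all units and 4.2% of bright units. Between LINC00158 and RP11-161H23.5 experiments 4 were higher in the former, against 3.94% of all units. They were RPS15 by 1.81 ± 0.34, RPS19 by 1.54 ± 0.31, RPL35 by 1.10 ± 0.18 and RPL12 by 1.09 ± 0.19 (0.0241, 0.0292, 0.0156 and 0.0191).

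RPL12 in the CYTOR comparison lost its call with no filter (0.0504). RPL35 shows the size of these differences. It read 17.94, 18.22 and 18.02, then 18.19, 18.09 and 17.94, then 16.90, 17.19 and 16.83 on the scrambled arrays of the CYTOR, LINC00158 and RP11-161H23.5 experiments. The last group lay below both others with no overlap. The calls between scrambled groups rested on single arrays: for CYTOR against RP11-161H23.5 the count was 1 without CYTOR scrambled replicate 1 and 0 without any other, and for LINC00158 against RP11-161H23.5 it was 0 without LINC00158 replicate 1, LINC00158 replicate 2 or RP11-161H23.5 replicate 3, 1 without RP11-161H23.5 replicate 2 and 2 without LINC00158 replicate 3.

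Related genes were read from lists. Of the listed TOP mRNAs for other proteins, 13 were measured. On the arrays labelled with CYTOR gapmers 0, 1 and 1 of them were called higher and 1, 0 and 1 lower, those being EIF3F and VIM. After LINC00158 gapmers 0 were called higher and 3 lower with each treatment, namely BTF3 (-1.29, -1.31 and -1.31, adjusted p = 0.0362, 0.0252 and 0.0285) and NACA (-1.06, -1.18 and -1.36, 0.0328, 0.0166 and 0.0113), which encode the subunits of the nascent polypeptide-associated complex, and the initiation factor subunit EIF3H (-1.18, -1.47 and -1.05, 0.0386, 0.0135 and 0.0471). The list's medians there were -0.94, -0.90 and -0.72. Beside these 3 of 13, 6.28%, 10.5% and 8.82% of all units and 23.7%, 38.3% and 25.0% of bright units were called lower. After RP11-161H23.5 gapmers 0, 2 and 0 were called higher (HNRNPA1 and NPM1) and 0, 0 and 1 lower (BTF3). Of all units 1.77%, 1.84% and 1.54% were called higher and 11.4%, 12.4% and 8.93% lower on arrays labelled with CYTOR gapmers. With RP11-161H23.5 gapmers 6.19%, 5.2% and 6.98% of all units were called higher and 7.1%, 7.03% and 9.3% lower.

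Of 8 paralogs of ribosomal protein genes, 0 were called on arrays labelled with CYTOR gapmers. Of the 7 tested with LINC00158 gapmers 2, 3 and 2 were called lower, RPL39L with each treatment (-1.37, -1.25 and -1.18, adjusted p = 0.0337, 0.0344 and 0.0457) and RPL36AL and RPS27L with some. Of 75 mitochondrial ribosomal protein genes, 2, 0 and 1 were called higher and 2, 4 and 3 lower on arrays labelled with CYTOR gapmers, with medians of 0.11, -0.09 and -0.09, where those of the cytosolic members were 0.45, 0.51 and 0.42. After LINC00158 gapmers 0, 0 and 1 were higher and 5, 16 and 8 lower of 75, with medians of -0.59, -0.84 and -0.61, beside the same shares of all and bright units. After RP11-161H23.5 gapmers 1, 4 and 1 were higher and 4, 4 and 7 lower. With LINC00158 gapmers 6.28%, 10.5% and 8.82% of all units and 23.7%, 38.3% and 25.0% of bright units were called lower. For the other experiments the shares of all units are those given above beside the TOP list.

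Pseudogenes of ribosomal proteins can share probes with the members. Of 652 tested on arrays labelled with CYTOR gapmers, 5, 11 and 9 were called higher and 117, 101 and 58 lower, with medians of -0.40, -0.29 and -0.10. Over all units the medians were -0.23, -0.26 and -0.20, with 11.4%, 12.4% and 8.93% called lower. Of 661 tested with LINC00158 gapmers, 32, 37 and 40 were higher and 72, 106 and 63 lower. The shares of all units there were 4.54%, 6.89% and 6.19% higher and 6.28%, 10.5% and 8.82% lower. Of 671 tested with RP11-161H23.5 gapmers, 41, 24 and 46 were higher and 50, 70 and 94 lower. The shares of all units there were 6.19%, 5.2% and 6.98% higher and 7.1%, 7.03% and 9.3% lower. Units that list a ribosomal protein gene with other genes, mostly small nucleolar RNAs, were 23 after the filter: 5, 8 and 5 were called higher on arrays labelled with CYTOR gapmers, 8, 6 and 4 lower with LINC00158 gapmers, and 0, 0 and 5 lower with RP11-161H23.5 gapmers. Of bright units 6.59%, 5.14% and 4.2% were called higher on arrays labelled with CYTOR gapmers. Those called lower were 23.7%, 38.3% and 25.0% with LINC00158 gapmers and 18.8%, 22.1% and 35.8% with RP11-161H23.5 gapmers. Of all units 1.77%, 1.84% and 1.54% were called higher on the arrays labelled with CYTOR gapmers.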

How the data were processed

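The authors deposited log2 values of 36 arrays, which the submitters' processing notes credit to Affymetrix Expression Console and RMA. The notes used here name no version or genome build and do not say which arrays were summarised jointly. Values have 2 decimals and range from 1.96 to 19.93. Arrays give no depth, so their number limits the precision. In each experiment the brighter units (mean not below the median unit's) were kept, and 4 group means were fitted to 12 arrays with limma 3.58.1 (lmFit, eBayes) in R 4.3.3. Benjamini-Hochberg adjustment ran over all units kept. Scrambled groups were compared in a fit of 9 arrays. The code was tested on simulated data. Tables were made with pandas 2.3.3.

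The members, lists and tests were chosen with earlier results of these data known. Genes were named if called in any comparison, if among the 3 highest or lowest mean changes of an experiment, if at the ceiling, if listed for a known role, or, for list genes, if called with every treatment of an experiment. RPS26, RPL24, EIF3F, VIM, HNRNPA1, NPM1, RPL36AL, RPS27L and the genes with an unadjusted p under 0.05 fell outside this rule and were named after their values were seen. Gene classes and start sites came from RefSeq (GRCh38.p14).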

Additional observations from a re-analysis of the deposited data

How the results depend on the processing

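The alternatives were no filter, the mean of all units of a symbol, members at the ceiling left out, quantile normalization, centring on bright units, the replicate number as a block, all 36 arrays in 1 fit, and each array left out in turn. Centring moved the median of all units from between -0.26 and -0.03 to between -0.39 and 0.73 over the 9 treatment comparisons. Treatments are given as gapmer 1, gapmer 2 and gapmer 1+2.

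The counts of members called were 7, 6 and 7 for CYTOR, 3, 9 and 2 for LINC00158, and 1, 1 and 2 for RP11-161H23.5. As deposited all LINC00158 and RP11-161H23.5 calls were lower. Quantile normalization gave 4, 5 and 3, then 1, 4 and 1 (1, 0 and 1 of them higher), then 3, 4 and 5 (2, 3 and 4 higher). Centring gave 3, 2 and 3, then 4, 8 and 5 (1, 4 and 3 higher), then 2, 2 and 6 (1, 2 and 6 higher). All 36 arrays in 1 fit gave 11 for CYTOR gapmer 2, 17, 17 and 11 for LINC00158, and 0 for RP11-161H23.5 gapmer 2. No filter gave 1 for LINC00158 gapmer 1, LINC00158 gapmer 1+2 and RP11-161H23.5 gapmer 1+2. Between scrambled groups, CYTOR against RP11-161H23.5 (2 members) gave 1 with no filter, 1 with quantile normalization and 0 with centring, and LINC00158 against RP11-161H23.5 (4 members) gave 2 with centring. The shares of all units called under these alternatives are not given here, and the cause of each of these moves was not tested.

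Same-numbered arrays had median correlations of -0.03, 0.01 and 0.07 in the 3 experiments and 0.08 among scrambled groups, ranging from -0.40 to 0.46. These values show no clear pairing by number, but with 3 arrays per group they cannot exclude it. With the replicate block the counts became 0 for LINC00158 gapmer 1, LINC00158 gapmer 1+2 and CYTOR against RP11-161H23.5 scrambled, and no other count moved by more than 1.5 times.

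Leaving out 1 array gave 3 to 7, 5 to 7 and 3 to 7 members for CYTOR, 0 to 20, 0 to 4 and 0 to 1 for LINC00158, and 1 to 1, 0 to 1 and 0 to 3 for RP11-161H23.5. It gave 0 to 1 and 0 to 4 for the scrambled groups of CYTOR and LINC00158 against RP11-161H23.5.

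Medians over members never at the ceiling ranged, with 1 array left out, over 0.325 to 0.6, 0.365 to 0.678 and 0.312 to 0.631 for CYTOR, -0.76 to -0.468, -0.622 to -0.457 and -0.437 to -0.35 for LINC00158, and -0.182 to 0.054, -0.158 to 0.054 and -0.276 to -0.091 for RP11-161H23.5. Quantile normalization moved LINC00158 to 0.028 with gapmer 2 and -0.079 with gapmer 1+2, and RP11-161H23.5 to 0.24, 0.278 and 0.213. Centring moved them to 0.19, 0.35 and 0.223, and to 0.235, 0.285 and 0.292. Shared-symbol units in place of members, an alternative chosen after seeing the data, gave -0.593 with LINC00158 gapmer 2.

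Over all members tested, those at the ceiling included, the medians were smaller in size: 0.09, 0.077 and 0.203 for CYTOR, where leaving the ceiling members out gave 0.45, 0.507 and 0.423. For LINC00158 leaving them out gave -0.58, -0.473 and -0.443, and for RP11-161H23.5 gapmer 1+2 -0.218. Quantile normalization gave -0.001, 0.0 and 0.0 for LINC00158 over all members tested. Centring gave 0.51, 0.653 and 0.547 for LINC00158 and 0.31, 0.313 and 0.508 for RP11-161H23.5. These medians include members at the ceiling, whose capped values centring shifts with the rest of each array. As deposited, with 1 array left out, the medians over all members tested ranged over 0.0 to 0.33, -0.0 to 0.257 and 0.062 to 0.383 for CYTOR, -0.36 to -0.183, -0.215 to -0.16 and -0.14 to -0.027 for LINC00158, and -0.014 to 0.0 for RP11-161H23.5.

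Of 44 single-gene calls, 23 held with quantile normalization, 16 with centring, 30 with the replicate block, 36 in the fit of 36 arrays and 34 with no filter. RPL26 changed sign with LINC00158 gapmer 1 (0.067 with quantile normalization, 0.033 with centring) and gapmer 2 (0.209 and 0.153).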
